A study of Mus musculus with 12 samples.

Results

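The genes of the interleukin-6 (IL-6) and interleukin-12 (IL-12) cytokine families were followed through the 4 groups of macrophage libraries. They were taken by name: Il6, Lif, Osm, Il12a, Il12b, Il23a, Il27 and Ebi3, and all 8 were found among the 48526 genes of the count table. After lipopolysaccharide (LPS) in cells with a deleted Tnf enhancer, Il6 transcripts stood at 51.6% of the control level, Il27 at 65.1%, Il12b at 72.5% and Osm at 77.8%. These 4 passed the edgeR test at any fold, as did 6.54% of all genes in that direction, but 0 of 7 tested genes met the fold minimum. Il27 and Osm did not pass with the share of small RNAs as a covariate (edgeR adjusted p = 0.0637 and 0.0848). Il6 did not pass with DESeq2 on all 12 libraries (adjusted p = 0.143). Ebi3 was at 102.8% and did not pass the test. In unstimulated cells Ebi3 was at 74.0%, a difference that passed the test at any fold (as did 9.69% of all genes in that direction). With the share of small RNAs as a covariate it did not pass (edgeR adjusted p = 0.141), though the log2 estimate was no smaller in size (-0.54 against -0.43). As that share did not overlap between genotypes without LPS, this fit separates the 2 poorly.

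IL-6, leukemia inhibitory factor (Lif) and oncostatin M (Osm) are secreted proteins that signal through receptor complexes containing the shared chain gp130, encoded by Il6st. The IL-12 family consists of paired subunits: Il12b encodes p40, which joins p35 (Il12a) in IL-12 and p19 (Il23a) in IL-23, while Ebi3 pairs with p28 (Il27) in IL-27. Macrophages make these cytokines when bacterial products engage Toll-like receptors, and the cytokines steer acute-phase, T cell and natural killer cell responses through JAK kinases and STAT transcription factors.

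Bone marrow-derived macrophages (BMDMs) were grown from femur and tibia marrow for 6 d in medium conditioned by L929 cells, a source of macrophage growth factor. Cells were homozygous for deletion of HSS9 (KO), an enhancer region upstream of Tnf, or came from HSS9+/+ mice (WT). Both genotypes were given PBS (UT, untreated) or LPS for 6 hr, and each of the 4 groups (WT UT, KO UT, WT LPS, KO LPS) held 3 libraries, numbered by batch. Mice were males of 7 to 10 weeks, and the LPS dose was not given in the sources used here. The labels call the controls littermates whereas the methods describe purchased C57BL/6 mice, so strain background and the deletion cannot be told apart. No source said whether the 3 libraries came from separate mice, so p-values measure the spread between libraries, which may be technical.

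Library totals were 26154533 to 36423921 counts. The deleted element is not a gene of the table, so the labels were checked on Tnf, the gene it was linked to: Tnf was at 826, 905 and 938 CPM (counts relative to library size under TMM scaling) in WT LPS and at 422, 450 and 425 CPM in KO LPS. Summed macrophage markers (8 genes) were at 28908 to 29983 CPM in WT UT and 33310 to 34417 in KO UT, and at 27940 to 29482 in WT LPS and 30233 to 32099 in KO LPS, without overlap of the genotypes in either treatment. Most of this sum was 1 gene, Lyz2 (mean 23453 CPM in WT UT and 27341 in KO UT). By group means Csf1r (2448 and 2242) and Fcgr1 (267 and 264) were lower in KO UT and Cd14 (3420 and 3257) in KO LPS, the other markers higher. The neutrophil marker Ly6g was at 0 throughout. Summed neutrophil markers (8 genes) were 20.0 to 21.5 CPM in WT UT and 42.2 to 47.7 in KO UT, but overlapped after LPS (50.4 to 79.3 in WT, 67.1 to 76.2 in KO). Summed stromal markers (8 genes) were 8.43 to 8.51 CPM in WT UT and 12.3 to 12.8 in KO UT, and 25.3 to 26.8 in WT LPS and 37.8 to 38.4 in KO LPS. Most of both gaps was Acta2, at means of 3.32 CPM in WT UT, 6.48 in KO UT, 2.99 in WT LPS and 10.4 in KO LPS. Col1a2 and Col3a1 were lower in KO UT, and Pdgfrb, the highest after LPS, was at 19.8 in WT LPS and 19.7 in KO LPS. Dendritic cell markers (8 genes) summed to 10.3 to 13.3 CPM in UT and 26.3 to 30.4 in LPS libraries, the genotypes overlapping, and B cell, T and NK cell and mast cell markers to at most 3.72 CPM each. Small structured RNAs took 3.00% to 3.25% of counts in WT UT, 6.64% to 7.98% in KO UT, 4.04%, 5.36% and 6.89% in WT LPS and 3.23% to 3.43% in KO LPS, without overlap of the genotypes in either treatment. The WT LPS libraries also differed most among themselves, with a chi-square of 12.4 to 46.3 per degree of freedom between pairs over all genes, against 5.21 to 8.66 in KO LPS and 3.81 to 14.0 in the UT groups. Values for the cytokine genes without each library are given below where they altered a call. The part of these differences in the genotype results was not tested, apart from a fit with the small RNA share as a covariate. That fit was read for the cytokine genes and Tnf only and is given below where it altered a call. With it fewer of all 15523 genes passed at any fold: 930 in place of 3700 between genotypes in UT and 1436 in place of 2223 after LPS. For the difference of LPS responses between genotypes 412 passed in place of 2611. In bulk RNA, fewer cells of a type and less RNA per cell cannot be told apart.

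The upstream sequences of 3 of the cytokine genes are shown because Il6 and Il12b differed between genotypes after LPS and Ebi3 did not. Each is the 250 bases before the RefSeq transcription start in GRCm38.p6, on the plus strand. Il6 lies at chr5:30012864-30013113, Il12b at chr11:44399813-44400062 and Ebi3 at chr17:55952373-55952622. Capitals mark matches, on either strand, to the NF-kappaB consensus, to AP-1 (TGANTCA) or to C/EBP (TTGNNCAA).
Il6: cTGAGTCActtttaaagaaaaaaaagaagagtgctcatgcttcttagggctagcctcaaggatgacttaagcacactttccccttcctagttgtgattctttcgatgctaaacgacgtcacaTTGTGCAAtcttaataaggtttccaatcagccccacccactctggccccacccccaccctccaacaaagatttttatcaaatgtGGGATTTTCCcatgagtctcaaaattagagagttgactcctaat
Il12b: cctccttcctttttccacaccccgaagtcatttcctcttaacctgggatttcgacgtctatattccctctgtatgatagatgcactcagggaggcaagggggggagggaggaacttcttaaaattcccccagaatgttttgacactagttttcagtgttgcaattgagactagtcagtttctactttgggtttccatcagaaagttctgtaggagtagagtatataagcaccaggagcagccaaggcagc
Ebi3: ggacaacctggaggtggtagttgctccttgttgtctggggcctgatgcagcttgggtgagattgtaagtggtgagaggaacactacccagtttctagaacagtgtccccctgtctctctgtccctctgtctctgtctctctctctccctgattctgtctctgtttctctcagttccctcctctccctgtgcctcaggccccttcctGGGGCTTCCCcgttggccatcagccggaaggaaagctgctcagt

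The search covered windows from 250 bases before to 50 bases after the start, and 5 of the 8 genes had a window (Il6, Lif, Il12a, Il12b and Ebi3). Il23a, Il27 and Osm had none. In Il6 the AP-1 match began at -249, the C/EBP match at -128 and the NF-kappaB match at -44, and no match overlapped another. Ebi3 had NF-kappaB matches at -44 and at 14 after the start. Lif had an AP-1 match at -228 and an NF-kappaB match at -178. The windows of Il12a and Il12b held none of these letters, and no window of the 5 genes held the cyclic AMP element (TGACGTCA) or the TATA box letters (TATAAA). Of 32851 mouse windows, 8.46% held the NF-kappaB consensus, 7.81% AP-1, 6.40% C/EBP, 1.79% the cyclic AMP element and 13.6% the TATA box letters.

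The mRNAs also differed in ATTTA pentamers of the 3' untranslated region, letters found in many short-lived cytokine transcripts. Il6 held 10, Lif 7, Osm, Il12a, Il12b and Il23a 6 each, Il27 5 and Ebi3 1, beside a median of 1 over 21041 coding genes. These counts go with the length of the region, from 3180 bases in Lif to 245 in Ebi3 (median of all genes 987). Per kilobase the order was another, with 17.5 for Il27, 12.1 for Il12a, 9.13 for Il23a, 7.75 for Il12b, 6.00 for Il6, 5.90 for Osm, 4.08 for Ebi3 and 2.20 for Lif, beside a median of 1.21. Lif and Osm are neighbours, 16530 bases apart on chromosome 11. Ebi3 is on chromosome 17 with Tnf, 20.8 Mb away. The other cytokine genes are on other chromosomes or, for Il12b, 40.1 Mb from Lif. Ebi3 overlaps the antisense gene Gm16712 by 2252 bases and Il27 overlaps Apobr on the opposite strand by 103 bases, and the strand setting of the counting was not stated. Gm16712 had at most 41 counts in a library. Apobr had 1755 to 3225 counts and, after LPS, rose in KO cells by 0.29 on the log2 scale (SE 0.056, edgeR adjusted p = 0.00162).

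**Figure D1:**
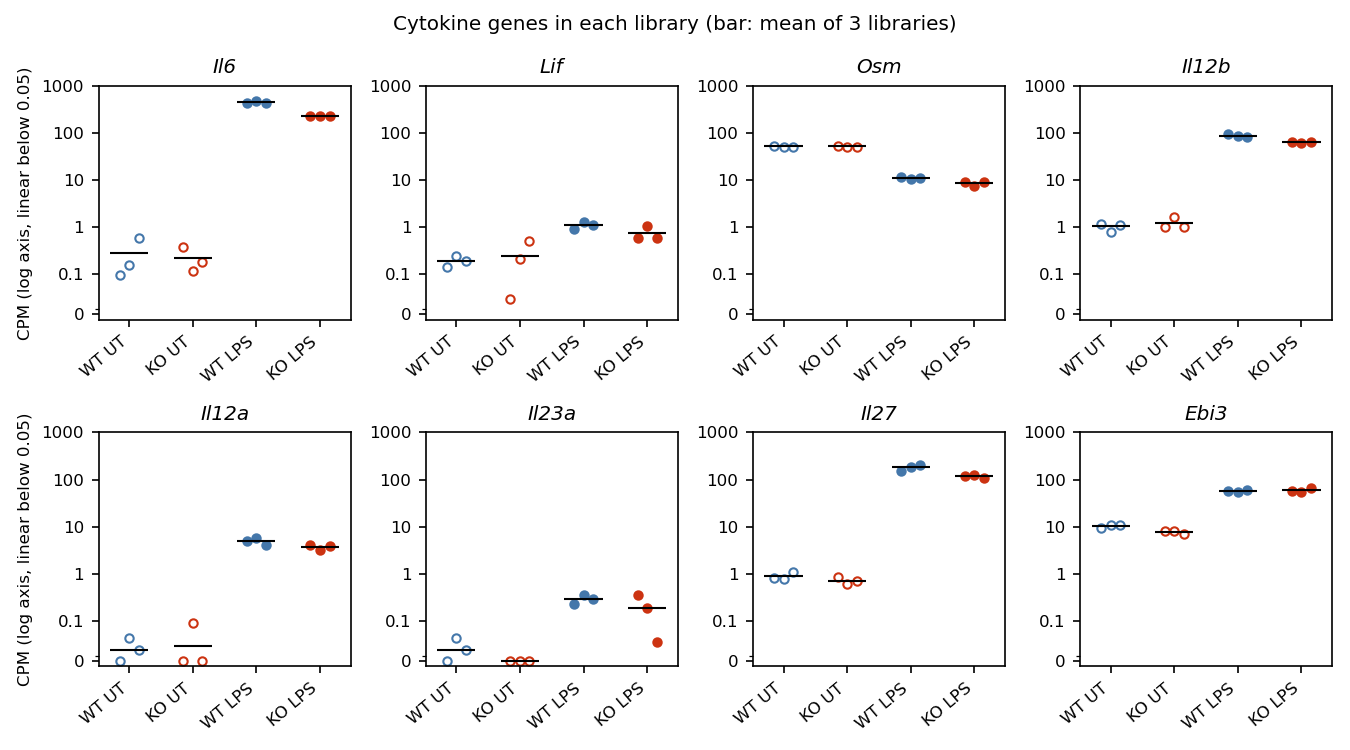
Expression of the 8 cytokine genes in CPM (log axis, linear below 0.05) in each of 12 libraries, with WT in blue, KO in red, UT as open and LPS as filled circles, and a bar for the mean of 3 libraries. Osm is the gene that is lower with LPS, and KO LPS lies below WT LPS without overlap for Il6, Osm, Il12b and Il27.

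The question of which cytokine genes respond to LPS was answered within each genotype. Calls required an edgeR adjusted p below 0.05 together with a log2 fold change beyond 1 in either direction. In WT cells 6 of the 7 tested genes were called higher and 1 lower, where 19.1% and 18.7% of all 15523 tested genes were called in these directions. KO cells gave the same counts, 6 higher and 1 lower, beside 17.7% and 19.3% of all genes. Il23a had too few counts for the test. Il6, Lif and Il12a passed the filter on low counts only with their LPS libraries, so the filter itself favoured a higher call for these 3, and the counts and medians given here are a description. The 4 that passed on UT libraries alone were Osm, Il12b, Il27 and Ebi3. With Il23a included, LPS and UT libraries did not overlap for any of the 8 genes in either genotype, 7 being higher (38.5% of all tested genes in WT, 36.6% in KO) and Osm lower (36.3% and 39.4%). Over the 7 genes the median log2 response was 6.40 for WT and 5.69 for KO cells, against 0.047 and -0.055 over all genes.

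Il6, whose product drives the acute-phase response and helper T cell differentiation, was at 0.0936, 0.154 and 0.595 CPM in WT UT and at 0.376, 0.117 and 0.177 CPM in KO UT. After LPS it reached 438, 479 and 438 CPM in WT and 233, 231 and 234 CPM in KO. The UT groups overlapped, at no more than 28 counts a library, whereas every KO LPS library was below every WT LPS library. The log2 response was 10.59 for WT (SE 0.19, edgeR adjusted p = 5.88e-22), with 11 of all tested genes higher, and 10.01 in KO (SE 0.20, adjusted p = 4.06e-21). Without WT UT replicate 3, the library with 28 counts, the WT response was 11.77.

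Lif, a cytokine best known for effects on stem cells and the nervous system, had the lowest level of the tested genes after LPS in CPM and per exon length, at 0.894, 1.26 and 1.13 CPM in WT LPS and 0.575, 1.05 and 0.585 in KO LPS. It was at 0.140, 0.243 and 0.191 CPM in WT UT and 0.0289, 0.206 and 0.506 in KO UT. These values rested on 1 to 28 counts, and the genotypes overlapped with and without LPS. Lif rose by 2.48 in WT (SE 0.54, edgeR adjusted p = 3.30e-04) and by 1.52 in KO (SE 0.55, adjusted p = 0.0171). The KO response missed the threshold without KO UT replicate 1 (1.02, adjusted p = 0.0804), without KO UT replicate 2 (1.40, adjusted p = 0.0559), without KO LPS replicate 2 (1.18, adjusted p = 0.103) and with the small RNA covariate (1.18, adjusted p = 0.485). Without KO UT replicate 3 it was 2.62 (adjusted p = 0.00110).

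Osm, which acts on stromal, endothelial and liver cells, went the other way. It was at 52.6, 51.6 and 51.4 CPM in WT UT and 53.4, 51.4 and 51.0 in KO UT, then at 11.4, 10.8 and 11.1 CPM in WT LPS and 9.12, 7.55 and 9.29 in KO LPS. The UT groups lay on top of each other and the KO LPS libraries were all below the WT LPS libraries. Osm fell with a log2 fold change of -2.22 in WT (SE 0.074, edgeR adjusted p = 4.34e-17) and -2.58 in KO (SE 0.075, adjusted p = 4.05e-18).

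Il12b, the p40 subunit shared by IL-12 and IL-23, was at 1.17, 0.794 and 1.13 CPM in WT UT and 1.01, 1.67 and 1.01 in KO UT. With LPS it was at 93.8, 87.1 and 81.1 CPM in WT and 64.7, 61.6 and 63.8 in KO, so that the genotypes overlapped without LPS and separated with it. The rise was 6.40 in WT (SE 0.12, edgeR adjusted p = 2.15e-21) and 5.69 in KO (SE 0.12, adjusted p = 1.98e-20).

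Il12a, the p35 subunit of IL-12, had 3 counts in all in WT UT and 3 in KO UT. After LPS it was at 5.03, 5.61 and 4.05 CPM in WT and 4.10, 3.23 and 3.81 in KO, with 1 KO library above the lowest WT library. Pooled over libraries, LPS levels were 221.6 times the UT level in WT (95% counting interval 75.2 to 1080) and 133.8 times in KO (45.3 to 652). All 3 Il12a counts of KO UT were in replicate 2. Without it the fitted log2 response of KO was 9.92 in place of 6.88, and it was 6.28 without KO UT replicate 3. That of WT was 8.34 without WT UT replicate 2 in place of 7.56.

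Il23a, the p19 subunit of IL-23, had 0, 2 and 1 counts in WT UT, 0 in each KO UT library, 6, 8 and 6 in WT LPS and 9, 5 and 1 in KO LPS. The WT LPS level was 12.8 times that of WT UT (95% counting interval 3.80 to 67.3). KO LPS was at least 6.76-fold higher than KO UT, with the pooled KO UT count set at the floor of 3 counts. The KO to WT ratio after LPS was 0.659 (0.314 to 1.35), so no genotype difference was detectable at this depth. These intervals cover counting error only.

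Il27, the p28 subunit of IL-27, was at 0.795, 0.772 and 1.06 CPM in WT UT and 0.867, 0.587 and 0.683 in KO UT. It was at 155, 186 and 205 CPM in WT LPS and 118, 128 and 110 in KO LPS, with no overlap after LPS. The WT LPS libraries stood in the same order for Il27 as for their small RNA share, and in the reverse order for Il12b. The rise was 7.69 in WT (SE 0.13, edgeR adjusted p = 4.36e-22) and 7.37 in KO (SE 0.14, adjusted p = 2.38e-21).

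Ebi3, the partner of Il27 in IL-27, was already present without LPS, at 9.52, 10.7 and 11.1 CPM in WT UT and 8.13, 8.02 and 7.03 in KO UT. After LPS it was at 57.2, 54.1 and 61.0 CPM in WT and 57.8, 53.1 and 66.2 in KO. Here the order was the reverse of that for Il12b, with the genotypes apart in UT and overlapping in LPS. The rise was 2.46 in WT (SE 0.087, edgeR adjusted p = 1.37e-16) and 2.94 in KO (SE 0.092, adjusted p = 1.37e-17).

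**Figure D2:**
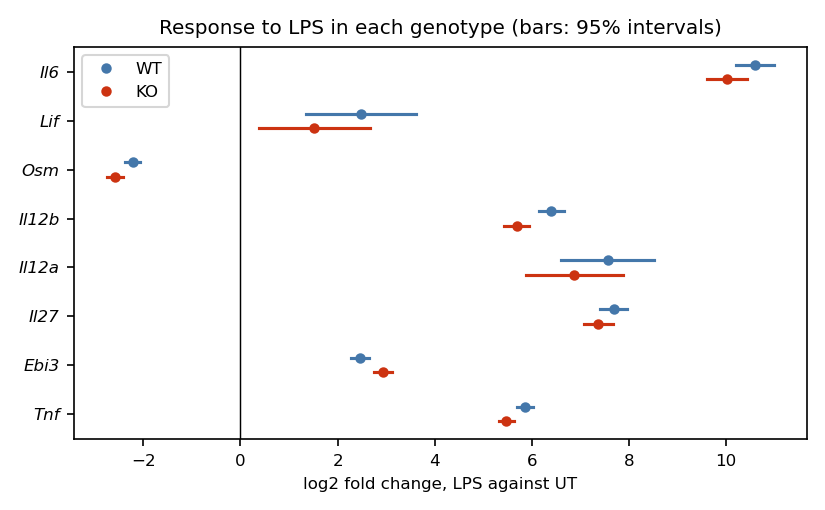
Log2 fold change of LPS against UT (horizontal axis) for the 7 tested cytokine genes and Tnf, in WT (blue) and KO (red), with bars for 95% intervals. Il6 has the greatest value in each genotype and Osm is the gene below 0.

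To compare levels between genes, CPM was divided by the length of each gene's merged exons in kilobases (RPKM). Without LPS, Osm led at 22.8 ± 0.293 RPKM in WT and 22.9 ± 0.576 in KO (SD, n = 3), followed by Ebi3 at 9.02 ± 0.691 and 6.69 ± 0.523. The other 6 genes were below 1 RPKM, in the order Il27, Il12b, Il6, Lif, Il12a and Il23a. Neighbours overlapped at Il6 and Lif and at Il12a and Il23a in WT UT. In KO UT neighbours also overlapped at Il27 and Il12b and at Lif and Il12a.

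With LPS the order in WT was Il6 at 186 ± 9.88 RPKM (SD, n = 3), Il27 at 178 ± 25.2, Ebi3 at 49.8 ± 2.99, Il12b at 44.4 ± 3.23, Osm at 4.89 ± 0.147, Il12a at 2.88 ± 0.463, Lif at 0.252 ± 0.0423 and Il23a at 0.128 ± 0.0302. Il6 overlapped Il27, and Ebi3 overlapped Il12b. In KO the order began with Il27 at 116 ± 8.55 RPKM and Il6 at 95.9 ± 0.612, which no longer overlapped. Ebi3 followed at 51.1 ± 5.74, Il12b at 32.2 ± 0.819, Osm at 3.81 ± 0.424, Il12a at 2.18 ± 0.261, Lif at 0.169 ± 0.0625 and Il23a at 0.0845 ± 0.0686, the last pair overlapping.

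These levels set the transcript ratios of subunits that pair as proteins. Il12b exceeded Il12a by 15.6 ± 1.99 times in WT LPS and by 14.9 ± 1.46 times in KO LPS (RPKM, SD, n = 3), and the genotypes overlapped (two-sided exact permutation test of log2 ratios, p = 0.80). The Il27 to Ebi3 ratio was 0.0950 ± 0.0134 in WT UT and 0.104 ± 0.0195 in KO UT (exact permutation p = 0.50), so that Ebi3 was in excess before LPS. With LPS the excess turned to Il27, at 3.05 to 3.90 times Ebi3 in WT (mean 3.59 ± 0.463) and 1.88 to 2.72 times in KO (mean 2.30 ± 0.417). The KO and WT ratios did not overlap, with an exact permutation p of 0.10, the smallest that 3 against 3 libraries allow.

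**Figure D3:**
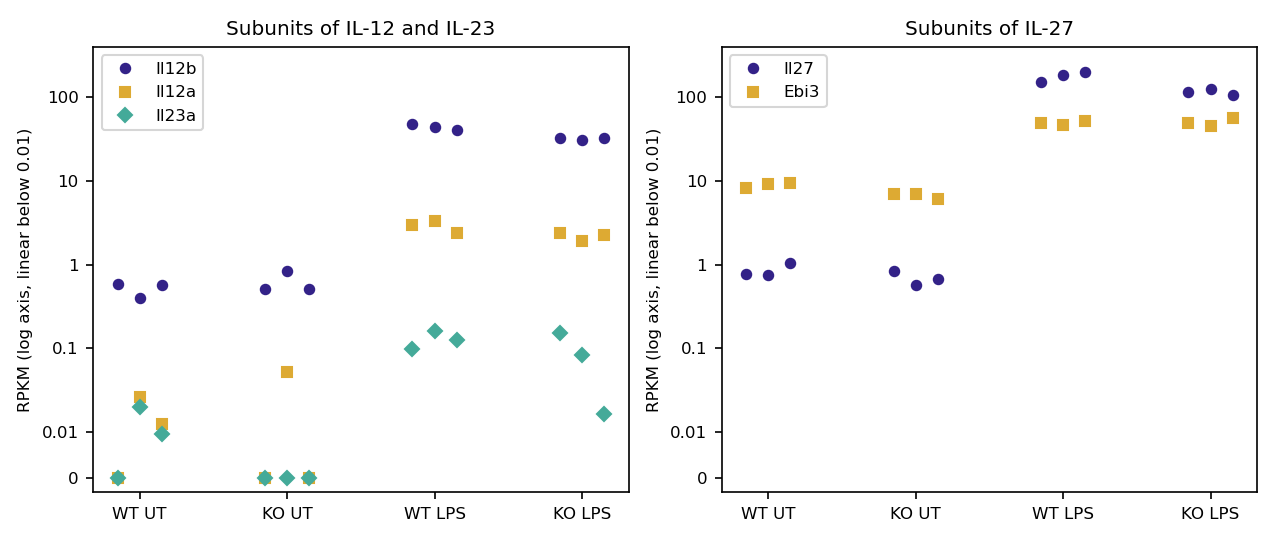
RPKM (log axis, linear below 0.01) in each library of the 4 groups, for the IL-12 and IL-23 subunits Il12b, Il12a and Il23a (left) and the IL-27 subunits Il27 and Ebi3 (right). Ebi3 lies above Il27 in UT and below it in LPS, and the gap after LPS is narrower in KO.

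The effect of the deletion on the LPS-stimulated levels was then tested. No cytokine gene reached the call with its fold minimum (0 of 7, edgeR, with 1.25% of all tested genes called, and 0 of 7 with DESeq2). Without the fold minimum, 4 of 7 fell in KO cells and 0 rose, beside 6.54% of all genes lower and 7.78% higher, and at an unadjusted p under 0.05 the count was also 4 (DESeq2 gave 3 lower at any fold). The 4 were those whose KO LPS and WT LPS libraries did not overlap, where 14.9% of all genes were lower in this way. Of the 7 log2 fold changes 6 were below 0, with a median of -0.46 against -0.0075 over all genes.

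Il6 fell by 0.96 on the log2 scale (SE 0.10, 95% interval -1.17 to -0.74, edgeR adjusted p = 2.10e-06). Within-batch values given here describe spread only: same-numbered libraries did not vary together, and where groups do not overlap the sign is fixed. Within the 3 batches the KO minus WT difference of Il6 lay between -1.05 and -0.90. DESeq2 on all 12 libraries gave the same size (-0.95) but an adjusted p of 0.143. On the 6 LPS libraries alone DESeq2 gave -0.95 with an adjusted p of 7.45e-42. For comparison Tnf fell by 1.04 (SE 0.060, edgeR adjusted p = 2.76e-10). The study states that Il6 expression and protein did not change in KO BMDMs after LPS. It gives no LPS time for those Il6 measures, so they may not match the 6 hr transcripts read here.

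Il27 fell by 0.62 (SE 0.083, edgeR adjusted p = 3.41e-05), with within-batch differences of -0.90 to -0.39. With the small RNA share as a covariate its difference was -0.24 and missed the threshold (adjusted p = 0.0637). Il12b fell by 0.46 (SE 0.080, adjusted p = 5.58e-04), with within-batch differences of -0.54 to -0.35, and stayed past the threshold with the covariate (-0.63, adjusted p = 2.05e-04), as did Il6 (-0.95, adjusted p = 1.44e-06).

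Osm fell by 0.36 (SE 0.086, edgeR adjusted p = 0.00723), with within-batch differences of -0.51 to -0.26. It missed the threshold without KO LPS replicate 2 (-0.27, adjusted p = 0.0538), with the covariate (-0.37, adjusted p = 0.0848) and with DESeq2 on the LPS libraries alone (-0.36, adjusted p = 0.0795). For Il12a the estimate was -0.40 (95% interval -0.91 to 0.10, edgeR adjusted p = 0.296) and for Lif it was -0.56 (-1.59 to 0.46, adjusted p = 0.492). Neither passed, and the intervals include falls as large as that of Osm. Both were lower in KO in 3 of 3 batches, but the genotypes overlapped, so another pairing of libraries need not give this. Ebi3 differed by 0.039 (-0.13 to 0.21, adjusted p = 0.795).

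Without LPS, 0 of 7 genes were called between genotypes (edgeR, 1.82% of all genes called, and 0 of 7 with DESeq2), and 1 fell at any fold, beside 9.69% of all genes lower and also 1 at an unadjusted p under 0.05. This was Ebi3, by 0.43 (SE 0.097, edgeR adjusted p = 0.00203), with within-batch differences of -0.65 to -0.23. It was the 1 gene whose UT libraries did not overlap (19.1% of all genes were lower in this way). In the main fit 3700 of all tested genes passed at any fold, and 930 did with the small RNA covariate. With it the Ebi3 value was -0.54, no smaller in size, with an edgeR adjusted p of 0.141. Under that fit Il27 was at -0.998 (adjusted p = 0.0101) in place of -0.30 (SE 0.26, adjusted p = 0.445). Osm differed by 0.0018 (95% interval -0.13 to 0.13, adjusted p = 0.990). Il12b was at 0.25 (-0.17 to 0.66), Il6 at -0.37 (-1.41 to 0.67), Lif at 0.40 (-0.87 to 1.66) and Il12a at 0.28 (-2.09 to 2.65), none past the threshold.

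Whether the LPS response itself differed between genotypes was tested with the interaction term. No cytokine gene was called (0 of 7, edgeR, 2.16% of all genes, and 0 of 7 with DESeq2), and 3 passed at any fold, 1 with a larger log2 response in KO (7.32% of all genes) and 2 with a lower one (9.50%), the same 3 as at an unadjusted p under 0.05. The Ebi3 response was larger in KO by 0.47 (SE 0.13, edgeR adjusted p = 0.0119) but missed the threshold with the small RNA covariate (0.63, adjusted p = 0.341). The Il12b response was lower by 0.71 (SE 0.22, adjusted p = 0.0280), a value that missed the threshold without WT UT replicate 2 (-0.55, adjusted p = 0.109), KO UT replicate 2 (-0.44, adjusted p = 0.207) or WT LPS replicate 2 (-0.71, adjusted p = 0.05001). Osm, which fell with LPS, had an interaction of -0.36 (SE 0.11, adjusted p = 0.0222), a further fall in KO. Osm missed the threshold without WT UT replicate 3, KO UT replicate 1 or KO LPS replicate 2 (-0.35 to -0.27, adjusted p = 0.0502 to 0.0860). It also missed it with DESeq2 (adjusted p = 0.0583), RLE scaling (0.0646), no filter on low counts (0.0685) and the small RNA covariate (0.641).

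For Il6 the interaction was -0.58 with a wide interval (-1.70 to 0.53, edgeR adjusted p = 0.511), as its UT counts were few. Without WT UT replicate 3, which held 28 of the 39 Il6 counts of that group, it was -1.76 and past the threshold (adjusted p = 0.0132). Without KO UT replicate 1 it was -0.019, so the Il6 interaction rested on single UT libraries. Il27 (-0.31, -0.89 to 0.26), Lif (-0.96, -2.59 to 0.67) and Il12a (-0.68, -3.31 to 1.94) did not pass.

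**Figure D4:**
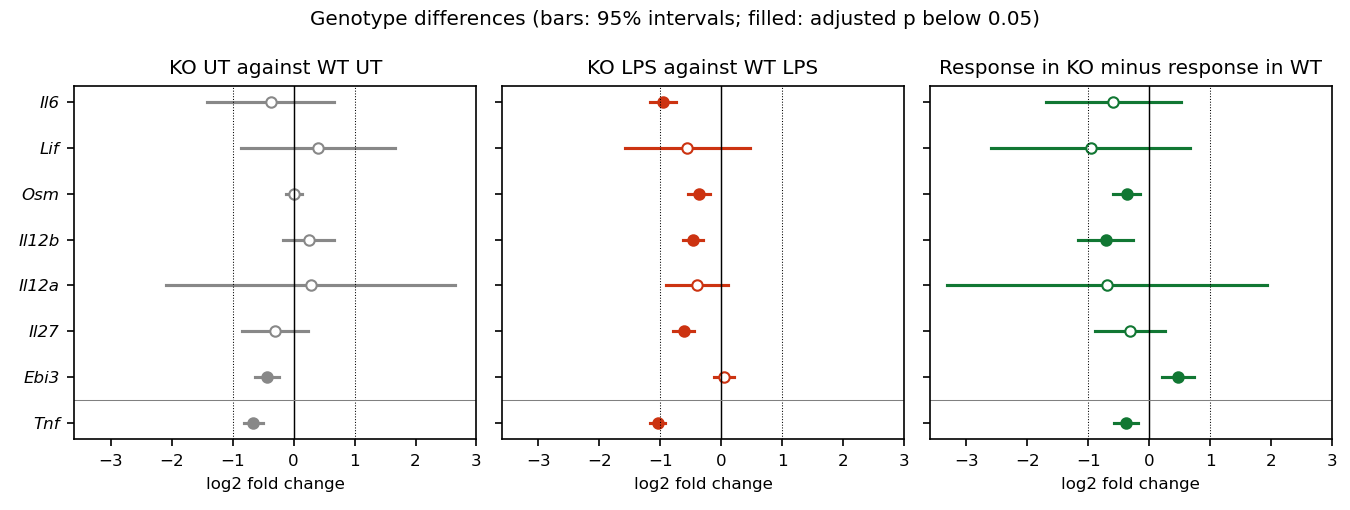
Log2 fold change (horizontal axis) of KO against WT without LPS, after LPS, and the KO response minus the WT response, for the 7 tested cytokine genes and Tnf, with bars for 95% intervals and filled circles for an edgeR adjusted p below 0.05. After LPS the filled circles are Il6, Osm, Il12b, Il27 and Tnf, all below 0, while Ebi3 is filled in UT and in the interaction.

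Genes around these cytokines were read from lists by role, in the same LPS comparison of KO with WT, and no listed gene was called with the fold minimum in any genotype comparison or in the interaction. The counts below are at any fold, where 7.78% of all tested genes rose and 6.54% fell. List genes were read in the main fit only, so whether these results hold in the other fits was not tested. Of 7 other IL-6 family ligand genes 1 was tested, Clcf1, which signals through the ciliary neurotrophic factor receptor. Clcf1 was at 11.9 ± 1.78 CPM in WT LPS and 6.72 ± 0.257 in KO LPS (SD, n = 3) and fell by 0.82 (SE 0.15, edgeR adjusted p = 7.81e-04).

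Of 11 receptor chains 9 were tested, and 1 rose and 0 fell (median -0.018). The riser was Il6ra, the IL-6 binding chain, from 54.6 ± 4.34 CPM in WT LPS to 70.0 ± 2.18 in KO LPS (by 0.36 on the log2 scale, SE 0.061, edgeR adjusted p = 4.93e-04). In UT it was the reverse, 97.6 ± 4.02 CPM in WT and 76.2 ± 1.02 in KO (-0.36, adjusted p = 9.38e-05). The Il6ra interaction was 0.71 (SE 0.084, adjusted p = 1.08e-05). Il6st was at 57.6 ± 3.23 CPM in WT LPS and 55.0 ± 2.16 in KO LPS (-0.068, adjusted p = 0.481). The values were -0.025 for Il11ra1 (adjusted p = 0.893) and 0.35 for Lifr (adjusted p = 0.118).

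Among 8 JAK and STAT genes 1 rose and 1 fell (median -0.14). The kinase gene Jak1 rose by 0.22 (SE 0.068, edgeR adjusted p = 0.0362). Stat3, the main transducer of IL-6, was at -0.15 (adjusted p = 0.0897) and the kinase gene Jak2 at 0.00090 (adjusted p = 0.997), while the kinase gene Tyk2 was at -0.12 (adjusted p = 0.176). The gene that fell was Stat5a (-0.20, adjusted p = 0.0259), named after its value was seen.

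Among 11 signal inhibitors 1 rose and 3 fell (median -0.065). The phosphatase gene Ptpn6 rose by 0.16 (SE 0.053, edgeR adjusted p = 0.0440). Socs3, the inhibitor of gp130 signalling, was at 778 ± 15.5 CPM in WT LPS and 744 ± 31.0 in KO LPS and did not pass (-0.065, adjusted p = 0.570), nor did the phosphatase genes Ptpn1 (-0.16, adjusted p = 0.0538) and Ptpn11 (0.11, adjusted p = 0.226). The 3 that fell, named after their values were seen, were Cish (-0.89), Socs1 (-0.34) and Pias4 (-0.26).

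Of 22 transcription factors known to act on these cytokine genes 4 rose and 6 fell (median -0.061). The AP-1 subunit gene Junb fell by 0.29 (SE 0.081, edgeR adjusted p = 0.0204) and Irf5, which drives Il12b and Il23a in macrophages, rose by 0.20 (SE 0.054, adjusted p = 0.0193). The NF-kappaB subunit gene Nfkb1 was at -0.14 (adjusted p = 0.0920) and the AP-1 relative Atf3 at 0.079 (adjusted p = 0.365). Named after their values were seen, the others that rose were Maf (0.41), Jun (0.30) and Fos (0.27), and the others that fell were Bcl3 (-0.37), Cebpd (-0.37), Batf (-0.31), Nfil3 (-0.28) and the NF-kappaB subunit gene Nfkb2 (-0.26, adjusted p = 0.00668). In the interaction 1 of the 22 factors passed with a larger log2 response in KO (Maf, 0.44) and 7 with a lower one, from -0.81 for Batf (adjusted p = 1.40e-04) to -0.26 for Nfkb2 (adjusted p = 0.0430), beside 7.32% of all tested genes with a larger and 9.50% with a lower one. In the other lists the interaction passed for 4 genes, Il6ra and Il11ra1 (-0.41, edgeR adjusted p = 0.0244) among 9 receptor chains, Jak1 (0.32, adjusted p = 0.0236) among 8 JAK and STAT genes and Elavl1 (0.42, adjusted p = 0.0242) among 10 decay factors. Of 10 mRNA decay and stability factors 1 rose and 2 fell (median -0.089). These, named after their values were seen, were Elavl1 (0.29), Arid5a (-0.28) and Zc3h12a (-0.21). The ones of highest level did not pass: Zfp36, whose product binds ATTTA-rich mRNAs, at -0.13 (adjusted p = 0.161), its relative Zfp36l2 at 0.13 (adjusted p = 0.345), and the Roquin genes Rc3h2 at -0.094 (adjusted p = 0.393) and Rc3h1 at -0.17 (adjusted p = 0.0994).

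**Figure D5:**
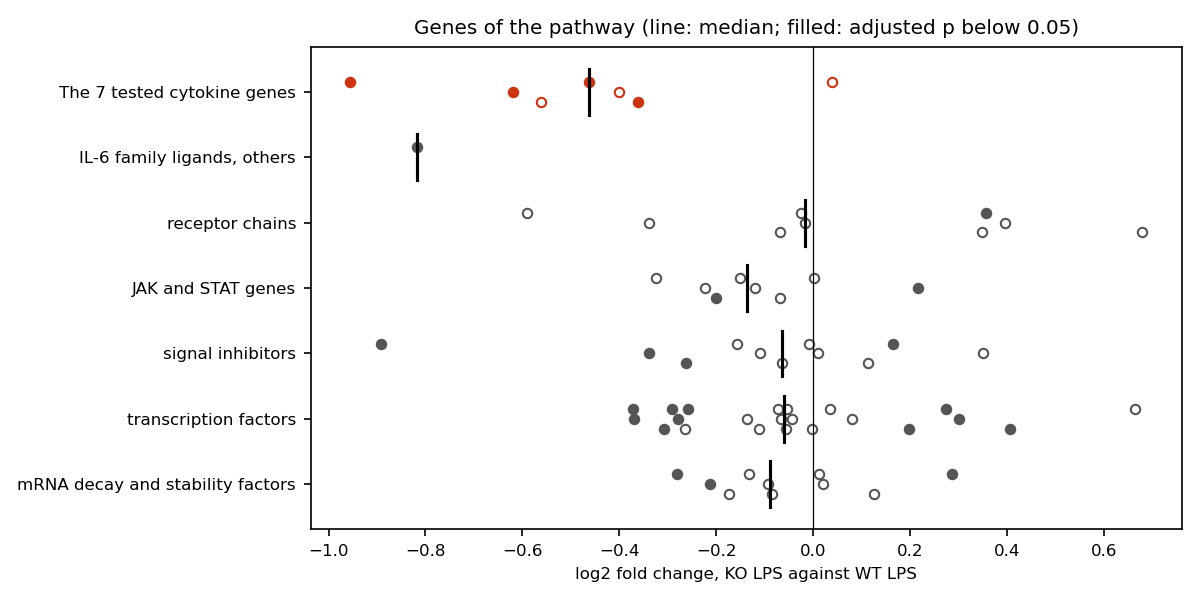
Log2 fold change of KO LPS against WT LPS (horizontal axis) for the 7 tested cytokine genes (red) and for tested genes of 6 lists (grey), with a line at each median and filled circles for an edgeR adjusted p below 0.05. The median of the cytokine genes is -0.46, and the medians of the 5 lists with more than 1 tested gene lie between -0.14 and -0.018.

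The genes with the most similar pattern over the 4 group means were sought among 9080 protein-coding genes with a mean of at least 5 CPM, by the Euclidean distance of log2 CPM centred on each gene's own mean. The nearest gene was Il1a for Il6 (distance 0.48), Znrf1 for Lif (0.15), Baiap2 for Osm (0.10), Socs1 for Il12b (0.15), Abtb2 for Il12a (0.23), Heatr9 for Il27 (0.15) and Filip1l for Ebi3 (0.043). The next were Shisa3 for Il6 (0.77), Gramd1a for Lif (0.16), Arhgap39 for Osm (0.12), Rnd1 for Il12b (0.23), Socs1 for Il12a (0.27), Il1f6 for Il27 (0.33) and Samd9l for Ebi3 (0.074). Centred values of low genes are drawn in by the prior count of 2 used for log2 CPM, which bears most on Il6, Lif and Il12a.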

How the data were processed

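Per the study's methods and the submitters' processing notes, the authors made stranded total RNA libraries with globin depletion, checked reads with FastQC 0.11.9, aligned them to GRCm38 with HISAT2 2.1.0, handled alignments with SAMtools 1.17 and counted genes with featureCounts 2.0.0. The deposited values are raw counts per gene, and all 12 columns were used. Identifiers without version were matched to GENCODE M21 symbols (48144 matched, 382 did not and held 0.122% of counts).

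Counts entered edgeR 4.0.16 (glmQLFit and glmQLFTest, with limma 3.58.1 and R 4.3.3) under TMM scaling, in a model of the 4 group means over 12 libraries. The filter filterByExpr (minimum count 10, minimum total 15) left 15523 genes with 99.96% of counts, 7 of the 8 cytokine genes among them, and p-values were adjusted by Benjamini-Hochberg over all of them. The script was tested on simulated data. Ratio tests used scipy 1.17.1. DESeq2 1.42.0 was an alternative, with RLE or upper-quartile scaling, a minimum mean CPM of 1 or no filter, a replicate block, fits limited to protein-coding genes or to the groups compared, removal of the 10 most-counted genes, the small RNA share as covariate, and fits without 1 library each.

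The cytokine genes and lists were chosen with earlier results of these data known. By rule the text names the 8 genes, Tnf, list genes called in a genotype comparison or else the 4 of highest mean CPM per list, and the 2 nearest patterns per gene. Others are marked as named after their values were seen, except Gm16712 and Apobr, given for their overlap, and 1 gene was taken out of the lists and is not reported here. Batch numbers in the labels equal replicate numbers and so pair libraries by label. Deviations from group means of same-numbered libraries correlated at -0.0631 to 0.0373 over 18 pairs, 0 of them above 0.1. No replicate pair agreed within counting noise (chi-square of at least 3.81 per degree of freedom). The precision of 1 count was 0.0213 to 0.0471 CPM.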

Additional observations from a re-analysis of the deposited data

Results flagged for a closer look

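By the interaction term of edgeR 0 of 7 cytokine genes met the call with its fold minimum, and 3 passed at any fold, where 7.32% of all tested genes had a larger log2 response in KO and 9.50% a lower one. The log2 difference of responses, KO minus WT, was 0.47 for Ebi3, -0.36 for Osm and -0.71 for Il12b. DESeq2 passed 2 of the genes and the fit with the small RNA covariate 1 (3415 and 412 of all 15523 genes, against 2611 in the main fit). The Ebi3 value stayed past the threshold in 20 of 21 fits, Il12b in 18 and Osm in 14.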

How the results depend on the processing

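With a replicate block, counts of called genes were unchanged: 7 of 7 for LPS in each genotype, 0 for the genotype comparisons and the interaction, with 4 (after LPS), 1 (UT) and 3 (interaction) at any fold, and no cytokine gene's call was altered. Of the counts and ratios, 244 values stayed within their limits and 6 moved. With the small RNA share as covariate, genes passing at any fold after LPS numbered 2, and for the interaction 1 was called (Il12b, -1.18) and 1 passed at any fold. Over all 15523 tested genes that fit passed 1436 at any fold after LPS, against 2223 in the main fit. For the interaction it called 111 of all genes (335 in the main fit) and passed 412 at any fold (2611). Without WT UT replicate 3, 1 was called for the interaction (Il6), the other fits without 1 library giving 0. With longest-transcript lengths the Il12b to Il12a ratio was 12.1 in WT LPS and 11.5 in KO LPS.

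Signs turned for 18 single-gene values, none past the threshold there. In UT (KO against WT) Osm was at -0.071 with DESeq2 and with RLE scaling, -0.020 with upper-quartile scaling, -0.0010 with no filter and -0.0016 with the compared groups only. Fits without 1 library each gave, in UT, -0.019 to 0.016 for Osm, -0.93 to 0.81 for Il6, -0.70 to 0.90 for Lif, -0.023 to 0.38 for Il12b and -2.77 to 1.07 for Il12a. They gave -0.050 to 0.11 for Ebi3 after LPS, and interactions of -1.45 to 0.14 for Lif and -1.47 to 2.37 for Il12a. With the covariate the interaction was 0.75 for Il27 and 0.082 for Tnf (edgeR adjusted p = 0.179 and 0.898). In the main fit that of Tnf was -0.38 (SE 0.095, edgeR adjusted p = 0.00763), and it was past the threshold in 20 of 21 fits. Upper-quartile scaling moved the median of all genes from 0.047 to -0.14 for LPS in WT and from -0.055 to -0.24 in KO. DESeq2 on the LPS libraries alone was added after seeing the data. Except where the setting drops libraries, the cause was not tested. Depth limits Il23a and Lif throughout, and Il12a and Il6 without LPS.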
